A study of Mus musculus with 6 samples.

Results

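The regions described here are summits called in MG132 replicate 2 and in no other list of the series. A summit is the base of highest enrichment within a called peak. Members were the summits of that list with no summit of the other 3 lists within 200 bp, and 3158 of its 6576 summits met the rule (48.0%, exact Clopper-Pearson 95% interval 46.8 to 49.2). All 4 lists together hold 11322 summits. Members were thus selected on summit positions in the 4 lists, so their absence from the other lists is a definition and not a result.

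The lists come from ChIP-seq with an anti-MafG antibody in embryonic fibroblasts of genotype MafF-/-::MafG-/-::MafK-/-:T-N1G. These mouse cells lack all 3 small Maf proteins and express T-N1G, in which Nrf1 and MafG are tethered to each other. Cells were treated for 4 h with vehicle or with 1.0 µM MG132, a proteasome inhibitor, with 2 ChIP libraries per treatment, and 2 input libraries have no list analysed here. How T-N1G was introduced or driven, and whether the replicates are separate cultures, is not given in the sources at hand.

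Nrf1 belongs to the cap'n'collar family of transcription factors; the proteasome keeps it scarce in unstressed cells, and it pairs with a small Maf protein to bind DNA. Small Maf proteins have no activation domain of their own, and the pair binds at elements known as antioxidant response elements or CNC-sMaf binding elements. Nrf1 is known for raising proteasome subunit genes when the proteasome is blocked. The endogenous small Maf genes are deleted in every library, so the tethered protein is the MafG-containing partner that the genotype provides for the antibody.

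The lists held 24 and 828 summits in vehicle replicates 1 and 2 and 3894 and 6576 in MG132 replicates 1 and 2. The authors' peak caller gave every summit a −log10 score, which grows with the number of reads, and the read depth of every library is unknown. Scores are therefore compared here only within a list. A summit missing from a list was not called there, and the lists say nothing of signal below their thresholds. All intervals below cover counting error only and treat summits as independent, although summits of 1 library share their source. The positions are of the mouse build mm9, and no mm9 sequence or gene annotation was used here, so genes, exons and motifs at these summits are not stated.

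Membership was decided almost wholly by MG132 replicate 1. Of the 6576 summits, 3197 had no summit of MG132 replicate 1 within 200 bp, and 39 of these were kept out of the set by a summit of vehicle replicate 2. No summit was kept out by vehicle replicate 1 alone. The 39 summits shared with vehicle replicate 2 and not with MG132 replicate 1 had a median score of 21.2, between a lowest of 2.15 and a highest of 56.3. Their median percentile within the list was 73.4, close to the 72.1 of the 3379 summits that were mutual nearest matches between the MG132 lists, called reproducible sites below. The 3158 members had a median percentile of 30.5.

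The members lay low in the score range of their own list but were not restricted to its bottom. Their scores ran from 1.41 to 57.4, with a median of 7.97 and quartiles of 5.43 and 11.7. The other 3418 summits ran from 1.62 to 404, with a median of 20.6 and quartiles of 11.7 and 36.3. The upper quartile of the members was thus close to the lower quartile of the other summits, and the ranges overlapped from 1.62 to 57.4. By score class, 632 members were below 5, 1510 were from 5 to below 10, 879 were from 10 to below 20, 112 were from 20 to below 30 and 25 were at 30 or more. The same classes held 102, 557, 1028, 617 and 1114 of the other summits. These values come from the calls that defined the set and are given as a description.

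**Figure D1:**
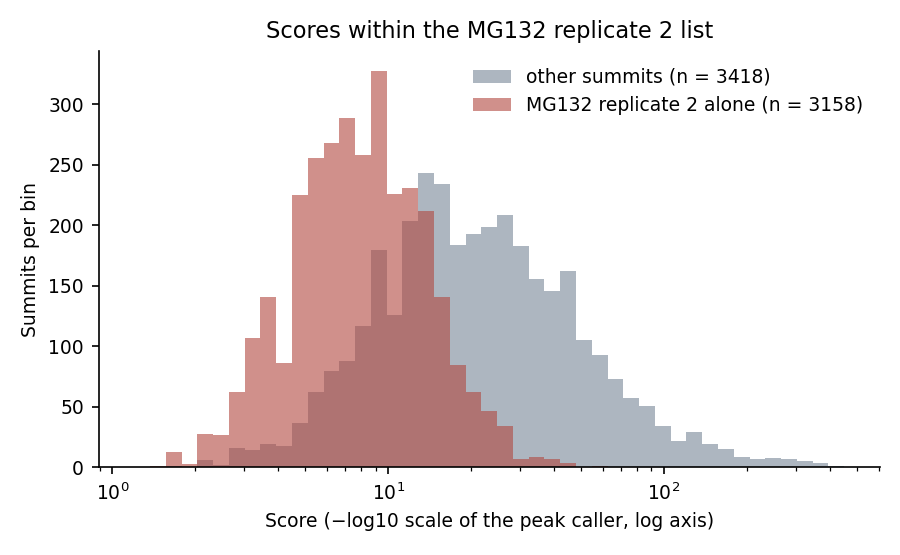
Histogram of scores in the MG132 replicate 2 list (x axis, −log10 scale of the peak caller on a log axis; y axis, summits per bin). Red bars are the 3158 summits called in no other list, with a median of 7.97, and grey bars are the other 3418 summits, with a median of 20.6; the sets overlap over the whole lower range.

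The share of members was lower in each successive 10% class of the list. In the lowest 10% by score 568 of 657 summits were members (86.5%, 83.6 to 89.0), with scores up to 4.63. In the sixth 10%, with scores from 11.7 to 14.6, 324 of 657 were (49.3%, 45.4 to 53.2). In the ninth 10% the share was 5.17% (3.60 to 7.15), and in the highest 10% 4 of 658 summits were members (0.608%, 0.166 to 1.55). None of the 100 best summits of the list was a member, 1 of the best 500 was, and 21 of the best 1000 were. If the list is held to the length of MG132 replicate 1, its 3894 best summits included 1098 members (28.2%, 26.8 to 29.6).

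The mirror set, the summits of MG132 replicate 1 with no summit of any other list within 200 bp, was smaller and was also concentrated at low scores. It held 514 of 3894 summits (13.2%, 12.2 to 14.3) with a median percentile of 22.5 in its own list. Its share was 32.1% (27.5 to 37.0) in the lowest 10% of that list, 9.77% (7.01 to 13.2) in the sixth 10%, and 0 of 390 in the highest 10%, where the exact upper bound is 0.941%. In every 10% class except the highest the replicate 2 share lay above the replicate 1 share with intervals that did not overlap. In the highest class the intervals overlapped. The lists differ in length, with 6576 summits against 3894, and 3379 summits were mutual nearest matches between them. The longer list was thus bound to have the larger unmatched share as a whole. The contrasts by class are not separate from that. Among the 3894 best summits of MG132 replicate 2, with matches unchanged, the share was 28.2% (26.8 to 29.6). This is not like for like with the 13.2% of MG132 replicate 1, whose summits were matched to all 6576 of replicate 2. The lists were not cut to the same length and matched anew. Whether the shares differ beyond list length was therefore not tested.

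**Figure D2:**
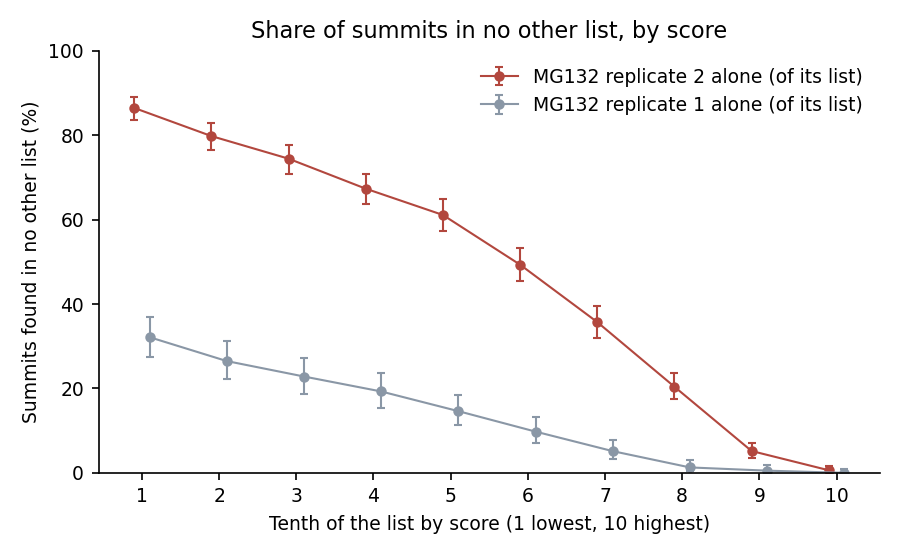
Share of summits found in no other list (y axis, %) in each 10% class of a list ordered by score (x axis, 1 lowest to 10 highest), with exact 95% intervals. In MG132 replicate 2 (red) it went from 86.5% to 0.608%, and in MG132 replicate 1 (grey) from 32.1% to 0.

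Many members had exactly the same score as other members. The list used 1219 different score values for 6576 summits, and 19 of these values, between 3.13 and 21.0, were each carried by 50 or more summits. These 19 values were picked out after the scores were seen, from counts over members and other summits together. Some reached 50 summits only through the members, as at 3.13, where 63 of 70 were members. The contrast between the sets is therefore partly built in. They held 1557 of the 3158 members (49.3%, 47.5 to 51.1) and 816 of the other 3418 summits (23.9%, 22.5 to 25.3). The 18 values below 19 formed a regular series, in which the step from a value to the next went from 0.74 at the low end to 1.07 at the high end. The most common value, 7.97, was carried by 200 summits, of which 137 were members (68.5%, 61.6 to 74.9). At 3.87 the members were 87 of 96 summits (90.6%), at 13.6 they were 97 of 171 (56.7%), and at 21.0 they were 10 of 55 (18.2%).

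Most of the gap in shared values went with the score itself. Among summits scoring from 5 to below 10, 52.8% of members (50.3 to 55.4) and 47.0% of the other summits (42.8 to 51.3) sat on a common value, with overlapping intervals. From 10 to below 20 the shares were 53.4% (49.99 to 56.7) and 45.7% (42.6 to 48.8), with intervals apart. The choice of values can in part build in such a gap. When every value shared with any other summit of the list was counted, the gap was small. From 5 to below 10 the shares were then 96.4% of members and 95.5% of other summits. From 10 to below 20 they were 93.7% and 93.4%. Why score values recur was not tested.

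**Figure D3:**
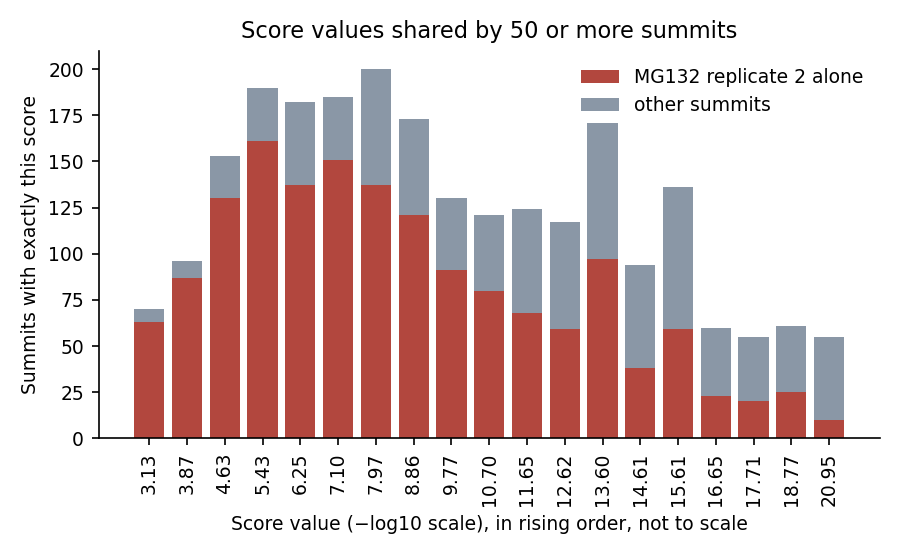
Number of summits (y axis) at each of the 19 score values shared by 50 or more summits of the MG132 replicate 2 list (x axis, in rising order and not to scale). Red is the part called in no other list, which goes from 63 of 70 summits at 3.13 to 10 of 55 at 21.0.

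The strongest members scored far above the bulk of the set, and 8 of the 10 best lay more than 20 kb from any summit of another list. The highest score was at chr10:127351865, with 57.4 and rank 405 of 6576. It lay 997 bp from a summit of vehicle replicate 2 and 1006 bp from one of MG132 replicate 1, and a reproducible site of its own list lay 955 bp away. It was therefore a further summit beside a site seen in other libraries. The next was at chr6:52775772, with a score of 46.2 and rank 596, and its nearest summit in any other list was 410 kb away. Those at chr1:129872611 (score 44.0, rank 633) and chr5:77897654 (score 43.7, rank 654) were 72.0 and 186 kb from the nearest summit of another list. These 4 are the members within the best 10% of the list.

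The other 6 of the 10 best members had scores between 38.8 and 42.4. They lay at chr1:34021728, chr11:30549214, chr1:99664842, chr3:94846314, chr5:24348470 and chr5:74762457. Of the 10, 3 were on chromosome 1 and 3 on chromosome 5. The summit on chromosome 11 lay 1759 bp from a summit of MG132 replicate 1 that was not part of a reproducible site, since the nearest of those was 124 kb away. The summit at chr1:34021728 had a neighbour in its own list at 2.90 kb, and its nearest summit in another list was 56.8 kb away. Distance to the nearest summit of another list ran from 0.997 to 410 kb over these 10 members.

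In all, 212 members (6.71%) lay more than 1 Mb from any reproducible site, and none of them reached the scores of the 10 best. The 3 best of them were a pair on chromosome 14, at positions 70013871 and 70017435, and a summit at chr16:45886958. The pair lay 3.56 kb apart with scores of 28.1 and 28.2, and the nearest summit of MG132 replicate 1 was 940 kb away from its first summit. The chromosome 16 summit scored 24.3 and lay 1.40 Mb from the nearest summit of another list. The lowest member, on X at position 166441089, scored 1.41 and lay 331 bp from a summit of MG132 replicate 1. The next lowest score, 1.62, was shared by 8 members.

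The threshold of 200 bp cut through a nearly empty range of distances. The members just outside it were at chr4:149649279, chr5:124932883 and chr15:81015007, which lay 230, 241 and 276 bp from a summit of another list and scored 5.43, 4.12 and 12.9. The summits just inside it were at chr1:187143760, chr12:3973351 and chr3:5860501, at 199, 184 and 163 bp, with scores of 31.4, 43.8 and 11.5. Only 3 members had a summit of another list within 300 bp, 12 within 500 bp and 43 within 1 kb (1.36%). Within 10 kb it was 244 (7.73%), and within 1 Mb 3007 (95.2%).

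For the 43 members within 1 kb of another list, the neighbouring summit usually had its own partner. The nearest summit belonged to MG132 replicate 1 for 32 of them and to vehicle replicate 2 for 11. In 31 cases that summit was matched within 200 bp by a different summit of MG132 replicate 2, so the member was a further call beside a shared site. In the other 12 cases that summit had no match in the list, so both libraries had a summit there at positions more than 200 bp apart. Score went little with distance: the median score was 7.10 for members within 1 kb of another list, 7.97 from 1 to 10 kb, 8.43 from 10 to 100 kb, 7.96 from 100 kb to 1 Mb and 7.10 beyond 1 Mb.

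The members lay about as far from reproducible sites as the other summits of the list did. For each member the distance was taken to the nearest of the 3379 reproducible sites, and for each other summit to the nearest such site other than itself. The median was 171 kb for members, with quartiles of 59.9 and 396 kb, and 178 kb for the other summits, with quartiles of 62.0 and 436 kb. Within 10 kb lay 208 members (6.59%, 5.75 to 7.51) and 197 other summits (5.76%, 5.01 to 6.60). Within 100 kb lay 35.0% (33.4 to 36.7) and 34.6% (33.0 to 36.2). The intervals overlapped in both windows. Within 500 bp there were 6 members (0.190%, 0.0698 to 0.413) and 0 of 3418 other summits, with an upper bound of 0.108%.

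Within score classes the members' share within 100 kb of a reproducible site was higher in the 3 middle classes, and the intervals lay apart in 1 of them. From 10 to below 20, 38.3% of members (35.1 to 41.6) and 31.5% of other summits (28.7 to 34.5) lay within 100 kb of a reproducible site. From 5 to below 10 the shares were 33.8% (31.4 to 36.2) and 27.8% (24.1 to 31.8), and from 20 to below 30 they were 45.5% (36.1 to 55.2) and 36.8% (33.0 to 40.7), with intervals that overlapped in both classes. Below 5 the members were at 31.5% (27.9 to 35.3) and the other summits at 37.3% (27.9 to 47.4). At 30 or more, where there were 25 members, the shares were 36.0% (17.97 to 57.5) and 39.3% (36.4 to 42.3). The intervals of these outer classes overlapped widely, so they show no direction. Within 10 kb the intervals overlapped in every class. From 10 to below 20 the shares within 10 kb were 5.92% of members (4.45 to 7.69) and 4.67% of other summits (3.46 to 6.14).

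**Figure D4:**
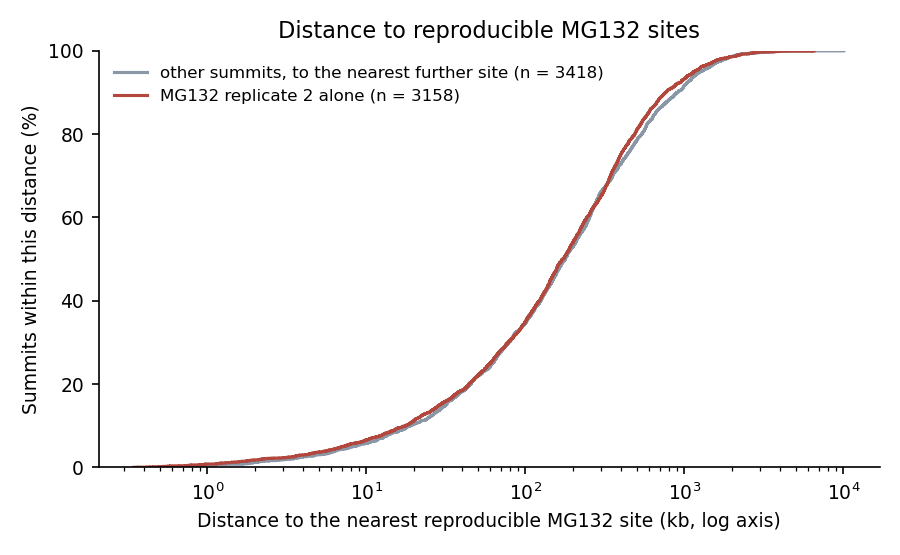
Cumulative share of summits (y axis, %) within a distance of the nearest reproducible MG132 site (x axis, kb, log axis). The curves of members (red, median 171 kb) and of the other summits of the list (grey, median 178 kb, own site left out) run close together.

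Members were found on chromosomes 1 to 19 and X, like the rest of the list. Their density, taken up to the last summit of any list on each chromosome, ran over the autosomes from 0.975 per Mb on chromosome 1 to 1.94 per Mb on chromosome 11. The other summits ran from 0.827 per Mb on chromosome 14 to 2.08 per Mb on chromosome 19. Across the 20 chromosomes the densities of both sets had a Pearson r of 0.76 and a Spearman rho of 0.71, as a description of points that share 1 library. On X the members had a density of 0.517 per Mb, 0.414 of that on the autosomes together. For the other summits it was 0.523 per Mb, or 0.386 of the autosomal value. X held 86 members (2.72%, 2.18 to 3.35) and 87 other summits (2.55%, 2.04 to 3.13), so the density on X was low in both sets. These totals compare sets of unlike scores. In the score classes above, from lowest to highest, X held 4.90%, 3.77%, 3.31%, 1.62% and 1.53% of other summits. For members the shares were 1.90%, 3.05%, 2.73%, 3.57% and 0%, with overlapping intervals in every class. The likeness of the totals also depends on the comparison group, and so on MG132 replicate 1. With that list left out of the matching, 5773 summits were unmatched, and 2.81% of them were on X. The rest were then a smaller group, only the summits matched to a vehicle list. Their median percentile was 92.8, against 72.1 for the other summits above. The X share of the unmatched summits was 2.05 times that of this group (log-normal 95% interval 1.12 to 3.76). With MG132 replicate 1 included, the ratio was 1.07 (0.797 to 1.44).

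The share of a chromosome's summits that were members ran from 41.6% on chromosome 1 to 55.4% on chromosome 11. For 14 of the 20 chromosomes the exact interval held the 48.0% of the whole list. The share was lower on chromosome 1 (192 of 462, 37.0 to 46.2) and chromosome 9 (180 of 422, 42.7%, 37.9 to 47.5). It was higher on chromosomes 7 (190 of 346, 54.9%, 49.5 to 60.2), 11 (236 of 426, 50.5 to 60.2), 13 (131 of 238, 55.0%, 48.5 to 61.5) and 14 (125 of 228, 54.8%, 48.1 to 61.4). These intervals were not adjusted for looking at 20 chromosomes.

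Part of this spread went with score, but only a small part on chromosomes 9 and 11. On chromosome 7 it was hardly any, since the score classes gave about the 48.0% of the whole list. If each summit is given the member share of its own 10% score class, chromosome 11 would hold 211 members against the 236 found, a ratio of 1.12, and chromosome 7 would hold 167 against 190, a ratio of 1.14. Chromosome 1 would hold 208 against 192 (0.923) and chromosome 9 would hold 199 against 180 (0.907). All ratios lay between 0.907 and 1.14, and 18 of the 20 were within 10% of 1. For MG132 replicate 1, summits in no other list made up 9.71% (6.03 to 14.6) on chromosome 11 and 11.05% (6.78 to 16.7) on chromosome 7, against 13.2% in its whole list. Its highest share was on chromosome 12, with 36 of 174 (20.7%, 14.9 to 27.5), where MG132 replicate 2 had 45.9% (39.8 to 52.2).

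**Figure D5:**
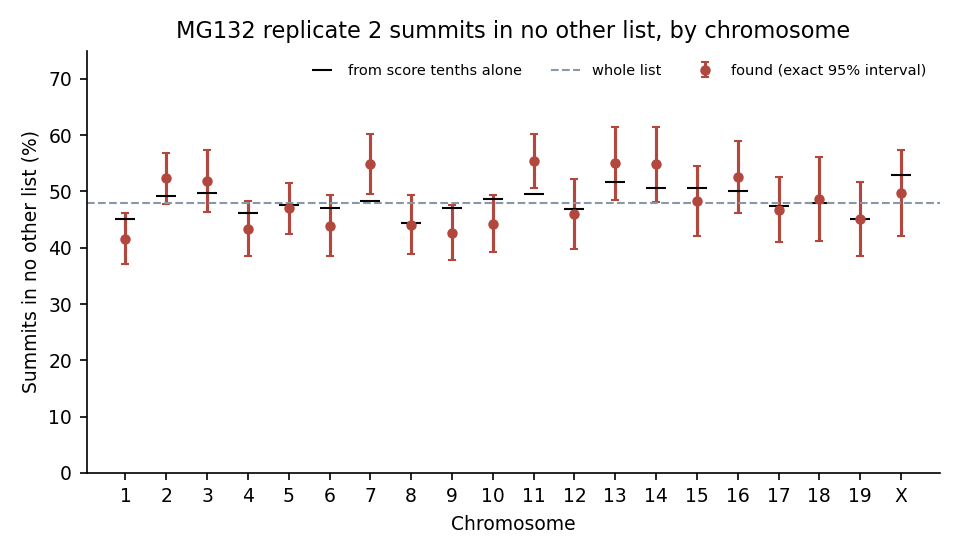
Share of MG132 replicate 2 summits found in no other list (y axis, %) on each chromosome (x axis), as red points with exact 95% intervals. Black ticks give the share obtained from the score classes of that chromosome's summits, and the dashed line is the 48.0% of the whole list; points run from 41.6% on chromosome 1 to 55.4% on chromosome 11.

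Most members stood alone. Another summit of the same list lay within 10 kb of 429 members (13.6%, 12.4 to 14.8) and of 388 other summits (11.4%, 10.3 to 12.5). Another member lay within 10 kb of 239 members (7.57%, 6.67 to 8.55), and 200 of the other summits had another of their own set as near (5.85%, 5.09 to 6.69). The intervals overlapped narrowly in both comparisons at 10 kb. At the other distances looked at, the intervals for another summit of the list lay apart: within 1 kb there was one for 2.41% of members (1.90 to 3.003) and 1.32% of other summits (0.962 to 1.76), and within 50 kb for 40.4% (38.7 to 42.1) and 36.6% (34.95 to 38.2). Joining members no more than 10 kb apart left 2919 on their own, 104 pairs, 9 groups of 3 and 1 group of 4.

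The group of 4 lay near the last summits of X, from 166430815 to 166445759, with scores from 1.41 to 5.62. Around it, within 10 kb either side, the same list had 6 other summits and MG132 replicate 1 had 10, so these members belonged to a stretch with many calls in both MG132 libraries. The groups of 3 with the highest score were different in this respect. The group on chromosome 3, from 95021857 to 95032283, had scores from 3.60 to 25.4, and that on chromosome 19, from 45123829 to 45129955, had scores from 7.97 to 18.6. Neither had another summit of its list or any summit of MG132 replicate 1 within 10 kb.

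Over windows of 1 Mb the members were spread widely. Of the 2023 windows that held a summit of the list, 1482 held a member (73.3%), and 653 of these held exactly 1. In 380 windows there were members and no other summit of the list, which placed 627 members (19.9%) in stretches where no summit of MG132 replicate 2 was shared with another list. Conversely, 541 windows held 933 of the other summits (27.3%) and no member. Windows with 5 or more were 98 for members and 107 for the other summits. The fullest window, on chromosome 2 from 154000001 to 155000000, had 11 members beside 4 other summits and 5 of MG132 replicate 1. The next, on chromosome 11 from 4000001 to 5000000, had 10 members beside 2 other summits, and windows on chromosome 10 from 59000001 to 60000000 and on chromosome 3 from 95000001 to 96000000 had 9 each beside 2 other summits. The window on chromosome 3 holds the group of 3 named above.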

How the data were processed

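ChIP-seq summit lists of 4 libraries (vehicle replicates 1 and 2, MG132 replicates 1 and 2) were used, grouped by treatment label and numbered by title. The deposited lists hold 1-bp intervals whose value is a −log10 p or q value. Per the submitters' processing notes, the tools were MACS2 2.1.4, Bowtie2 2.2.9 and bcl2fastq 2.16.0.10, with mm9 as the build. Thresholds, duplicate handling, use of input and read depth are not given in the sources at hand.

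Positions were made 1-based, and summits were matched within 200 bp. Percentiles are ranks within a list with ties at the mean rank; ties in the 10% classes were split in file order. Shares have exact 95% intervals. No test was run, because the calls chose the members and summits of 1 library are not replicates. Planned analyses of motifs and genes were not run, since the gene and promoter tables at hand are of another build. The text names the 10 members of highest score, the 3 highest over 1 Mb from a reproducible site, the lowest (up to 3 were planned, but the next score was tied among more), 3 summits on either side of 200 bp, the 3 fullest groups (ties by highest score) and the fullest 1-Mb windows. Members, lists and rules were chosen with earlier results of these data known. The matching was tested on simulated lists. The software was Python 3.11.15 with matplotlib 3.10.9, SciPy 1.17.1, pandas 2.3.3 and NumPy 2.4.6.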

Additional observations from a re-analysis of the deposited data

How the results depend on the processing

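The set depended mainly on MG132 replicate 1. Leaving out each of the other 3 lists in turn gave member shares from 48.0% to 87.8% of the list and a median percentile of members from 30.5 to 45.0. The share of members on X was 2.72% to 2.81%, but its ratio to that of the other summits went from 1.07 to 2.05, and the share within 10 kb of a reproducible site was 6.59% to 6.63%, with no value without MG132 replicate 1, because no reproducible site is then defined. The upper values are those without MG132 replicate 1, which left 5773 members, except the 6.63%, which is the value without vehicle replicate 2. The member share was 52.0% with matches within 50 bp and 46.7% with scores of at least 5. Matches within 100, 500 and 1000 bp, merging of summits within 500 bp and scores of at least 10 left it inside its interval. The share of members near a reproducible site was 1.80% within 2 kb and 21.9% within 50 kb, and 3.60% within 10 kb with scores of at least 10, where all lists held fewer summits. No paired analysis was possible because no result comes from a test over samples, and the members are defined in 1 library. Unknown read depth limits what absence from a list can show.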
